A study of Mus musculus with 24 samples.

Results

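Slc5a1, Slc2a2, Slc2a5, Slc2a7, Slc5a4a, Slc5a9 and Slc5a11 are 7 genes of the SLC2 and SLC5 families, which include transporters of sugars and polyols. They were taken by symbol from a table of 17811 mouse genes, and their messenger RNA was followed along the jejunal villus, the fold through which the small intestine absorbs nutrients. All 7 were in the table, and all 7 were among the 9328 genes that had enough counts to be tested. The samples came from 4 male C57BL/6 mice aged 10 weeks that ate regular chow. Jejunal epithelial cells were released with EDTA and divided by FACS into 6 zones on their staining for CD73 and CD26, a pair of cell surface proteins. These were V1 (most bottom), V2 (bottom), V3 (bottom-middle), V4 (middle), V5 (middle-tip) and V6 (tip). Every zone was sequenced in bulk as 4 libraries, 1 from each animal, and the labels name no treatment or genetic change.

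Dietary sugar crosses the intestinal epithelium through enterocytes, the absorptive cells that are born in the crypt and move up the villus to its tip. SLC5 proteins of the SGLT type couple sugar uptake to the sodium gradient that the basolateral sodium pump maintains, whereas SLC2 proteins of the GLUT type let sugars move down their own gradient. Slc5a1 encodes SGLT1, which takes glucose and galactose from the lumen. Slc2a5 encodes GLUT5, the fructose transporter of the apical membrane, and Slc2a2 encodes GLUT2, through which sugars leave the cell toward the blood. Bulk libraries measure RNA per sorted pool, so that fewer cells of a type and less RNA per cell cannot be told apart.

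Library totals ran from 806541 to 2266261 unique molecular identifiers (UMIs, tags that let each RNA molecule count a single time). Transcript levels are in CPM (UMIs of a gene per fixed library size, corrected by TMM factors), and differences between zones as log2 values from edgeR's quasi-likelihood test. Adjusted p-values were calculated by the Benjamini-Hochberg method over all 9328 genes within each comparison, and a gene was called at an adjusted p under 0.05. Nt5e, which encodes CD73, averaged 31.3 CPM in V4, 45.8 CPM in V5 and 269 CPM in V6. Its values in single libraries overlapped between V4 and V5. Dpp4, which encodes CD26, averaged 147 CPM in V1, 504 CPM in V4 and 437 CPM in V6. V4 exceeded V1 by a log2 of 1.78 ± 0.18 (SE; edgeR, adjusted p = 1.4e-07). This gene of the sort thus had a course like that of the transporters below. The summed level of 9 enterocyte markers ran from 9007 to 24050 CPM in V1 and from 58440 to 90280 CPM in V4. The 4 stromal and endothelial markers together averaged between 2.88 and 5.17 CPM in the 6 zones. Markers of Paneth cells, which are cells of the crypt, were present in every zone. The 6 of them together averaged from 8603 CPM in V6 to 19160 CPM in V5, with up to 38110 CPM in a single V5 library. Their part in the transporter values was not tested.

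All 7 transporters had their lowest zone mean in V1. The highest zone mean lay in V3 for 5 of them, in V2 for Slc5a4a and in V4 for Slc5a9, and for none at the tip. Among the 28 courses of 1 gene in 1 mouse, 23 were lowest in V1 and 14 were highest in V3, while 2 were highest in V2, 5 in V4, 3 in V5, 4 in V6 and 0 in V1. V6 lay below V3 in 22 of the 28 courses and below V4 in 20. The 7 genes were read in the same libraries of 4 mice, so the 28 courses are not independent of one another. V3 was also the zone of the highest mean for 5 genes, and these counts are not set beside a share over all genes. The zone means thus climbed over the bottom of the villus and then levelled off or declined.

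**Figure D1:**
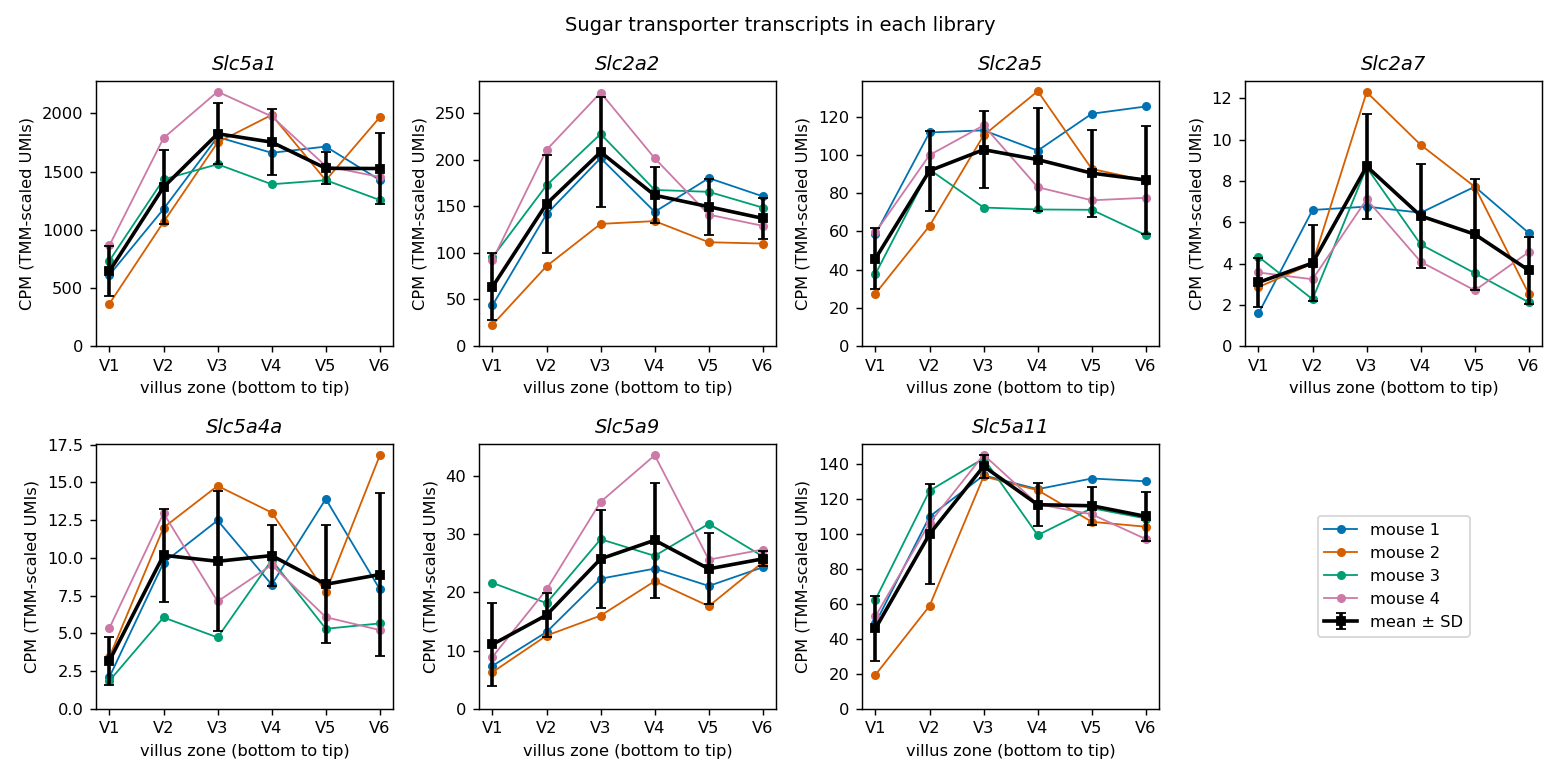
Levels of the 7 transporters in every library, with villus zone from bottom to tip on the x axis and CPM on the y axis of each panel. Thin lines join the 6 zones of a mouse and the black line gives the mean ± SD of 4 mice: each mean is lowest in V1, and Slc5a11 was highest in V3 in each mouse.

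Slc5a1 lies on chromosome 5 at chr5:33104219-33162870 on the plus strand (GRCm38, GENCODE M21, ENSMUSG00000011034). The 250 bases before its start are chr5:33103969-33104218 on the plus strand in RefSeq's GRCm38.p6 table. They are shown because Slc5a1 is the main apical glucose carrier and the only member promoter in which CACGTG was found. The capitals mark CACGTG at 143 to 138 bases before the start. It is a form of the E-box that factors of the ChREBP and MLX type can recognise, and other forms were not searched.
Slc5a1: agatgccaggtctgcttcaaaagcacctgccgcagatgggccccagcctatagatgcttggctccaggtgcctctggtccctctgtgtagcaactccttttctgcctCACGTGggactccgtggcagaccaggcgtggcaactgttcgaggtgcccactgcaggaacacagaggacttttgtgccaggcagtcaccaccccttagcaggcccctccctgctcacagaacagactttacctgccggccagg
The letters CACGTG, which read the same on both strands, occurred in 6.02% of 32851 RefSeq promoters of the same length and in 1 of the 6 members with a sequence there.

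Slc5a1 rose from V1 to the middle of the villus. In V1 it had 612, 364, 734 and 866 CPM in mice 1 to 4. In V3 the same mice had 1797, 1751, 1563 and 2187 CPM, and in V4 they had 1661, 1987, 1391 and 1974 CPM. Every library of V2 to V6 was above every library of V1, and the lowest of the V1 libraries was that of mouse 2. The mean was 644 ± 213 CPM in V1, 1366 ± 320 in V2, 1825 ± 262 in V3 and 1753 ± 285 in V4 (SD, n = 4). V4 exceeded V1 by a log2 of 1.45 ± 0.22 (SE), a 2.72-fold difference, with an adjusted p of 2.3e-05 in edgeR. Most of that rise came in the first step, where V2 exceeded V1 by a log2 of 1.09 ± 0.22 (edgeR, adjusted p = 0.00912). That first step lost its call without mouse 1 (edgeR, adjusted p = 0.136), mouse 3 (0.0512) or mouse 4 (0.124).

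Above the middle, no change of Slc5a1 was called. In V6 it had 1427, 1968, 1255 and 1453 CPM in mice 1 to 4, a mean of 1526 ± 308 CPM (SD, n = 4). Each mouse was lower in V6 than in V4, mouse 2 by the least, yet the ranges of the 2 zones overlapped. The difference was a log2 of -0.20 with a 95% interval from -0.65 to 0.25 (edgeR, adjusted p = 1). Slc5a1 in V1 was at 35.3% of its V3 mean and in V6 at 83.6% of it.

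Slc2a5, the apical fructose transporter gene, lies at chr4:150119283-150144169 on the plus strand (ENSMUSG00000028976), and Slc2a7 follows on the same strand after a gap of 4802 bases. Slc2a5 had 58.5, 27.5, 37.7 and 59.5 CPM in V1 in mice 1 to 4. In V4 it had 102, 133, 71.4 and 83.1 CPM, above every V1 library. V4 exceeded V1 by a log2 of 1.09 ± 0.27 (SE), or 2.13-fold, with an adjusted p of 0.003 in edgeR. Without mouse 2, whose V4 library was the highest of that zone and whose V1 library was the lowest, the log2 difference was 0.71 and the call was lost (edgeR, adjusted p = 0.0611). V2 exceeded V1 by a log2 of 1.00 ± 0.27 (SE) without a call (edgeR, adjusted p = 0.0567), and by 1.01 ± 0.20 with one when mouse was a block (0.00142).

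The mice differed in where Slc2a5 peaked, which was V6 in mouse 1, V4 in mouse 2, V2 in mouse 3 and V3 in mouse 4. Zone means from V2 to V6 were 91.7 ± 20.8, 103 ± 20.3, 97.5 ± 27.0, 90.4 ± 22.7 and 86.8 ± 28.3 CPM (SD, n = 4), so that neighbouring zones differed by less than the spread between mice. In V6 the 4 mice had 125, 86.5, 58.0 and 77.5 CPM, a range that overlapped that of V4. V6 minus V4 was a log2 of -0.17 (95% interval -0.72 to 0.38; edgeR, adjusted p = 1).

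Slc2a2, the basolateral sugar exit gene, lies at chr3:28697903-28731359 on the plus strand (ENSMUSG00000027690). Its upstream sequence, chr3:28697653-28697902 on the plus strand, is shown together with that of Slc2a7 at chr4:150148637-150148886, also on the plus strand, because these were the 2 members that held a GATA motif. Capitals mark CTTATC, the reverse complement of GATAAG, which lies 157 to 152 bases before RefSeq's start in Slc2a2 and 92 to 87 bases before it in Slc2a7.
Slc2a2: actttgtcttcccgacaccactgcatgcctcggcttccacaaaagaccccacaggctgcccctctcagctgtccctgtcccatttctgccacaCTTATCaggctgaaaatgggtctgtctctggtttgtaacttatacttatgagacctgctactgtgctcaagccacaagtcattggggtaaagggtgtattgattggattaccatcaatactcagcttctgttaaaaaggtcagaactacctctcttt
Slc2a7: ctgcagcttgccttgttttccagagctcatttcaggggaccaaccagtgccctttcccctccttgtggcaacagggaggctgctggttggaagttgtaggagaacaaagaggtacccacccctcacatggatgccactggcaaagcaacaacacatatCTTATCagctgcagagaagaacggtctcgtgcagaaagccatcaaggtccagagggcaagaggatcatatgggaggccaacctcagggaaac
GATAAG on either strand occurred in 6.55% of the 32851 promoters. A match is a description of these letters and was not set against any measurement of binding. TATAAA, held by 12.4% of promoters, was found in Slc5a4a alone among the 6 members, and GTTAAT (6.43%), TTTATG (10.8%) and CAAAGTCCA (0.384%), each searched on both strands, were in none of the 6. Slc5a9 had no entry in the promoter table.

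Slc2a2 had 43.7, 22.9, 95.3 and 92.2 CPM in V1 in mice 1 to 4. In V3 the values were 202, 131, 228 and 272 CPM, and in V4 they were 144, 134, 168 and 202 CPM. Both zones lay wholly above V1, and mouse 2 was the lowest of the 4 in every zone from V1 to V6. V4 exceeded V1 by a log2 of 1.35 ± 0.33 (SE), or 2.54-fold (edgeR, adjusted p = 0.00342). With mouse as a block the first step alone was called, with V2 above V1 by a log2 of 1.31 ± 0.22 (edgeR, adjusted p = 0.000341), against an adjusted p of 0.0538 without the block.

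The decline of Slc2a2 toward the tip was called in 1 of the models run. From V3 to V6 its means were 208 ± 58.9, 162 ± 29.98, 149.5 ± 30.1 and 137 ± 22.2 CPM (SD, n = 4), and in V6 it stood at 65.8% of its V3 mean. V6 was below V3 in 4 of 4 mice. In a model of the 16 libraries of V3 to V6, a range chosen after seeing the data that starts at the zone where Slc2a2 peaked, its slope was -0.19 log2 per zone (edgeR, adjusted p = 0.173). With mouse as a block the slope was -0.18 and was called (edgeR, adjusted p = 0.00289), in a model that called 0.868% of 8643 genes lower, against 0.0231% without the block. V6 minus V4 in all 24 libraries was a log2 of -0.23, with a 95% interval from -0.91 to 0.45 (edgeR, adjusted p = 1).

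Slc2a7, a GLUT family member at chr4:150148972-150168482 on the plus strand (ENSMUSG00000062064), was measured from few molecules, with 3 to 20 UMIs per library and 191 in all. In V1 it had 1.58, 2.86, 4.33 and 3.57 CPM in mice 1 to 4, and in V3 it had 6.76, 12.3, 8.66 and 7.11 CPM. V3 lay wholly above V1, and no other zone did. In V6 the values were 5.48, 2.52, 2.12 and 4.56 CPM, which overlapped V1, and the mean was at 42.1% of the V3 mean. V4 minus V1 was a log2 of 1.07 ± 0.45 (SE) and missed the threshold (edgeR, adjusted p = 0.0625). With mouse as a block it was 1.04 ± 0.44 and passed (edgeR, adjusted p = 0.0461). Its slope over V3 to V6 was the steepest of the members, -0.39 log2 per zone, and was not called (edgeR, adjusted p = 0.191, and 0.0689 with the block). V6 was below V3 in 4 of 4 mice, and the unadjusted p of that slope was under 0.05 in edgeR with and without the block. The range was chosen after seeing the data and starts at the zone where the mean of Slc2a7 peaked.

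Slc5a11 encodes SMIT2, a sodium-coupled transporter of myo-inositol, and lies at chr7:123214780-123273253 on the plus strand (ENSMUSG00000030769). In V1 it had 49.0, 19.4, 62.5 and 52.9 CPM in mice 1 to 4. In V3 it had 134, 133, 143 and 145 CPM, which was the highest zone in 4 of 4 mice. The 4 mice were close to one another in V3, with a mean of 139 ± 6.46 CPM (SD, n = 4), and far apart in V2, from 58.9 CPM in mouse 2 to 125 in mouse 3. V4 exceeded V1 by a log2 of 1.35 ± 0.24 (SE), or 2.54-fold (edgeR, adjusted p = 1.3e-04). The first step was a log2 of 1.12 ± 0.23 (edgeR, adjusted p = 0.0121). It lost its call without mouse 1 (edgeR, adjusted p = 0.187), mouse 3 (0.057) or mouse 4 (0.178). In V6 the mice had 130, 104, 109 and 97.1 CPM, each below its own V3 value. Slc5a11 thus stood at 79.3% of its V3 mean at the tip, and V6 minus V4 was a log2 of -0.086 (95% interval -0.57 to 0.39; edgeR, adjusted p = 1).

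Slc5a9, which encodes the sodium-coupled mannose transporter SGLT4, lies at chr4:111875375-111902918 on the minus strand (ENSMUSG00000028544). Its zone means peaked in V4, the latest of the members. By mouse, Slc5a9 peaked in V6 in mice 1 and 2, in V5 in mouse 3 and in V4 in mouse 4. In V1 it had 7.38, 6.29, 21.7 and 8.92 CPM in mice 1 to 4, with mouse 3 apart from the others. In V4 it had 24.1, 21.9, 26.3 and 43.6 CPM, all above V1. V6 held 24.3, 25.2, 26.2 and 27.4 CPM, the narrowest spread of its zones (25.8 ± 1.30 CPM, SD, n = 4). V4 exceeded V1 by a log2 of 1.36 ± 0.33 (SE), or 2.57-fold (edgeR, adjusted p = 0.0026). Leaving out mouse 4, whose V4 library had the most Slc5a9 and the fewest UMIs of the study, gave a log2 of 1.05 and an adjusted p of 0.0516 in edgeR. V6 minus V4 was a log2 of -0.13 (95% interval -0.78 to 0.52; edgeR, adjusted p = 1), and it was 0.07 without mouse 4 and 0.10 without the V4 library of that mouse.

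Slc5a4a encodes SGLT3a, a relative of SGLT1, and lies at chr10:76147451-76189265 on the plus strand (ENSMUSG00000020229). It was counted at 3 to 27 UMIs per library. V1 had 2.11, 3.43, 1.86 and 5.35 CPM in mice 1 to 4, V2 had 9.68, 12, 6.05 and 12.96 CPM, and V4 had 8.23, 13, 9.85 and 9.53 CPM. V2 and V4 lay wholly above V1, while V3, V5 and V6 overlapped it. V4 exceeded V1 by a log2 of 1.65 ± 0.46 (SE), or 3.13-fold (edgeR, adjusted p = 0.00788), and V6 minus V4 was -0.22 (95% interval -1.10 to 0.66; edgeR, adjusted p = 1). Slc5a4a was already at its plateau in V2, with means of 10.2 ± 3.07 CPM in V2, 9.77 ± 4.65 in V3 and 10.2 ± 2.03 in V4 (SD, n = 4). With mouse as a block V2 exceeded V1 by a log2 of 1.67 ± 0.37 (edgeR, adjusted p = 0.00217), against an adjusted p of 0.0567 without it. Its neighbour and closest relative Slc5a4b, on the minus strand with a gap of 36489 bases, went from 9.50 ± 1.86 CPM in V1 to 29.6 ± 8.87 CPM in V4, and held 32.4 ± 4.51 CPM at the tip (SD, n = 4). The last 500 bases of the longest coding transcript of each member held no run of 50 bases that another gene's transcripts shared.

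Read over the whole set, the lower villus separated the members from V1. From V1 to V4, 6 of the 7 were called higher, in a comparison that called 19.0% of all 9328 genes higher. The members' median was a log2 of 1.35, against -0.02 over all genes tested. The members were chosen with earlier results of these data known, so these values describe them and do not test them as a set. When mouse was a block, 7 of 7 were called, against 25.6% of all genes. Leaving out mouse 2 or mouse 4 left 5 called. The count stayed at 6 when the library with the fewest UMIs (V4 of mouse 4) was left out. It was also 6 without V1 of mouse 2, a library that was lowest in its zone for 5 members and that carries the deposited index of mouse 1.

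Markers of several cell types moved over the same zones. The summed level of 8 goblet cell markers, the genes of the mucus-secreting cells, ran from 47420 to 94370 CPM in V1 and from 10400 to 13370 CPM in V4, with 8 of 8 called lower and none at 0. Of the 9 enterocyte markers, 8 were called higher and none was at 0. From V1 to V4, 19.0% of all genes were called higher and 17.5% lower. The goblet mean was 36600 CPM in V2, 11610 in V3, 11590 in V4, 11360 in V5 and 11380 in V6, so it was level over V3 to V6. The summed enteroendocrine markers ran from 1881 to 2650 CPM in V1 and from 246 to 949 CPM in V4, with 3 of 7 called lower, 1 higher and none at 0. The summed T lymphocyte markers ran from 6.29 to 50.1 CPM in V1, from 41.4 to 146 CPM in V4 and from 223 to 270 CPM in V6, with 1 of the 3 tested called higher from V1 to V4, 0 from V4 to V6 and none at 0. The part of these shifts in the transporters' rise from V1 was not tested. Removal of the goblet markers before scaling left the count of called members at 6. Scaling by total UMIs moved the median of all genes from V1 to V4 to a log2 of -0.34, and 6 members were still called higher.

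**Figure D2:**
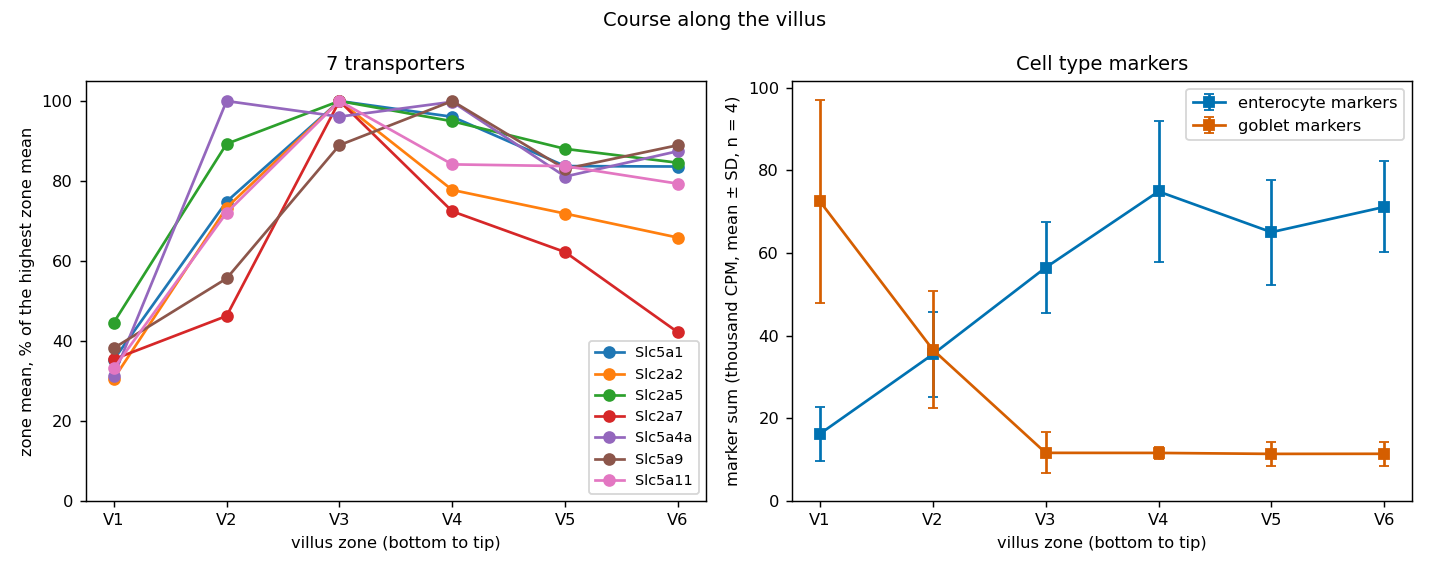
Left, zone means of the 7 transporters as a percentage of each gene's highest zone mean, by villus zone; right, summed CPM of the 9 enterocyte and 8 goblet markers, mean ± SD of 4 mice. The transporters start between 30.5% and 44.6% of their peak in V1, where the goblet sum is highest, and from V3 on the goblet sum is level.

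From V4 to V6, 0 of the 7 members were called in either direction in edgeR, where 0.45% of all genes were called higher and 0.0% lower. No member had an unadjusted p under 0.05, and DESeq2 also called 0. The model blocked by mouse called 0 members too, where 1.35% of genes were called higher and 0.0643% lower. The log2 difference was below 0 for 7 of 7, with a median of -0.20 against -0.00079 over all genes. For Slc5a9 that sign turned without mouse 4 or its V4 library. The 95% intervals reached 0.16 for Slc2a7 and up to 0.66 for Slc5a4a on the high side, so that a further rise of more than a log2 of 0.66 above V4 lay outside all 7. Both comparisons use the V4 libraries, and their values are given side by side for that reason. Enteroendocrine markers moved between these zones, from a summed 246 to 949 CPM in V4 to 3410 to 6039 CPM in V6, with 5 of 7 called higher and none at 0, and their part in the transporter values was not tested.

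**Figure D3:**
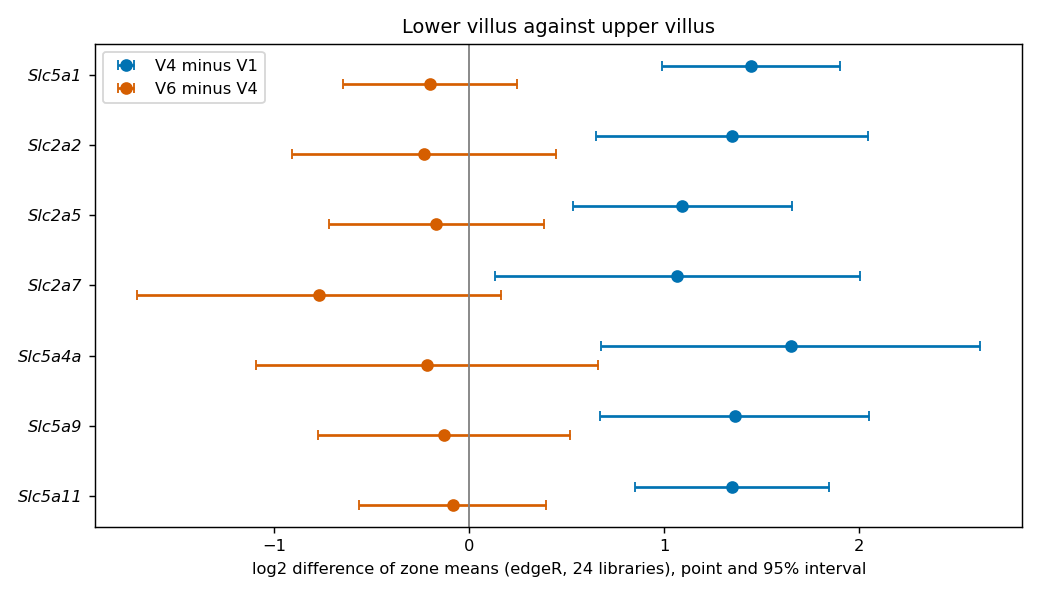
Log2 differences of V4 minus V1 (blue) and V6 minus V4 (orange) for each transporter, on the x axis, as the edgeR estimate over 24 libraries with its 95% interval. The 7 blue points sit between 1.07 and 1.65 and the 7 orange points between -0.77 and -0.086, with each orange interval crossing 0.

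The bent course was also called, in a contrast that again uses the V1 libraries. Quadratic curvature, which is negative where a gene is highest in the middle zones and also where a rise levels off, was negative for 7 of 7 and called for 5 of 7, against 4.57% of all genes. The 5 were Slc5a1 (-0.14 log2 per zone squared; edgeR, adjusted p = 0.000752), Slc5a11, Slc2a2, Slc2a5 and Slc2a7. With mouse as a block 7 of 7 were called, against 12.3% of genes, and DESeq2 called 6. The curvature of the main comparison lost members when mice were left out, with 3 called without mouse 1, 3 without mouse 2 and 2 without mouse 4. How many of all genes lost their call in those fits is not given here. Over V2 to V6 alone 0 members were called, against 0.19% of genes, and 0 with the block, against 3.36%. At an unadjusted p under 0.05 those counts were 4 and 5, without a share of all genes at that threshold beside them.

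A straight line from V1 to V6 described the members less evenly. Its slope was called higher for 5 of 7, against 22.1% of all genes. Slc5a9 had the steepest, 0.23 ± 0.05 log2 per zone (SE; edgeR, adjusted p = 0.0014), followed by Slc5a11 and Slc5a1 at 0.19 each. Slc2a7 had 0.06 ± 0.08 and was not called (edgeR, adjusted p = 0.55). Slc5a4a had 0.18 ± 0.08 (edgeR, adjusted p = 0.0543), which passed with mouse as a block (0.0146), where 6 of 7 were called against 27.6% of genes. Total UMI scaling left 3 called, without Slc2a2 and Slc2a5, and leaving out mouse 1 also left 3. Over V2 to V6 the slopes ran from -0.10 for Slc2a7 to 0.13 for Slc5a9, with 0 called in edgeR (1 had an unadjusted p under 0.05), against 9.61% of genes called higher. With the block 1 was called, Slc5a9 (0.13; edgeR, adjusted p = 0.0225), against 16.9% of genes. Over V3 to V6 all 7 slopes were below 0, from -0.39 to -0.017, against a median of -0.0095 over all genes tested. Again 0 were called by edgeR, with 3 at an unadjusted p under 0.05, a count without a share of all genes beside it. That range was chosen after seeing the data and starts at the zone where 5 of the 7 had their highest mean. The sign of these slopes therefore follows in part from the choice of range.

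Any difference among the 6 zones was called for 6 of 7 members, against 27.4% of genes, with Slc2a7 outside (edgeR, adjusted p = 0.0562) and inside with the block (0.0221), which called 48.6% of genes. Without mouse 1 only 2 were called and without mouse 4 only 3, in fits of 18 libraries with 12 residual degrees of freedom. The share of all genes called in those fits is not given here. Between neighbouring zones, V2 exceeded V1 for 2 of 7 (Slc5a1 and Slc5a11), against 1.43% of all genes, and for 5 of 7 with mouse as a block, against 9.2%. DESeq2 called 4. Without mouse 1, 3 or 4 edgeR called 0. No member was called in the 4 later steps, where 3 members (Slc2a7, Slc5a9 and Slc5a11) had an unadjusted p under 0.05 for V3 above V2 and 0 for V4 against V3, V5 against V4 and V6 against V5. Over all genes these steps called 0.172% higher and 0.118% lower from V2 to V3, 0.0643% higher from V3 to V4, 0.268% higher from V5 to V6, and 0.0% otherwise. DESeq2 and the block called 0 in those steps too.

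Whether the members took different courses was asked within libraries. The log2 ratio of 2 members in the same library does not depend on library scaling, and its slope over zones was tested by permuting zones within mice. Over 42 tests, 21 pairs each over V1 to V6 and over V3 to V6, 0 passed after adjustment (lowest adjusted p = 0.0812, permutation test), and 13 had an unadjusted p under 0.05. Among these, the ratio of Slc2a5 to Slc5a11 had a slope of -0.082 log2 per zone over V1 to V6, in the same direction in 4 of 4 mice (permutation p = 0.00348). The ratio of Slc2a2 to Slc5a9 had a slope of -0.18 over V3 to V6, also the same in 4 of 4 mice (permutation p = 0.00767). Differences in course between the members were therefore not established.

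Across the 24 libraries the log2 levels of the members were correlated to very different degrees. Pearson's r was 0.93 for Slc5a1 with Slc5a11, 0.92 for Slc2a2 with Slc5a11 and 0.88 for Slc5a1 with Slc2a2. Slc2a7, which was counted from the fewest molecules, had an r from 0.24 (with Slc5a9) to 0.56 (with Slc2a5). These values describe libraries that share mice, zones and the shift in goblet transcripts, and they carry no test. By the same measure, the genes most like Slc5a1 were Ckmt1 (r = 0.97), Naprt (0.96) and Dgat1 (0.95). Slc2a2 was most like Khk, the gene of ketohexokinase that phosphorylates fructose (r = 0.97), and Slc25a45 (0.96). Slc2a5 was most like Bpnt1 (0.92), Ugt2a3 (0.91) and Gpd1 (0.90), and Slc5a11 most like Cndp2 (0.96) and Khk (0.95). Slc5a9 was most like Vnn1 (0.94), Lct, the gene of lactase (0.93), and Cdhr5 (0.93). Slc2a7 (Mpnd, 0.68) and Slc5a4a (mt-Nd1, 0.79) had no gene as close.

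The other SLC2 and SLC5 genes did not all share the course. This list and those below were also chosen with earlier results of these data known. Of 18 listed, 14 were in the table and 8 were tested. From V1 to V4, 4 of the 8 were called higher and 1 lower (2 lower by total UMI scaling), against 19.0% of all genes higher and 17.5% lower. The 4 were Slc5a12, a sodium-coupled monocarboxylate transporter (log2 3.51 ± 0.57, SE; edgeR, adjusted p = 5.8e-05), Slc5a8 of the same kind (1.84), Slc5a4b (1.62) and Slc5a6, the multivitamin transporter (1.13). Slc2a1, which encodes GLUT1, the glucose carrier of many tissues, ran the other way. Its mean was 13.1 ± 1.95 CPM in V1, 3.14 ± 1.19 CPM in V4, and 5.97 ± 2.30 CPM at the tip (SD, n = 4), with V4 minus V1 at a log2 of -1.99 ± 0.33 (SE; edgeR, adjusted p = 7.9e-05). Its curvature was 0.21 (edgeR, adjusted p = 0.00109), opposite in sign to that of the 7 members. Slc2a10 fell along the villus with a slope of -0.46 ± 0.10 (edgeR, adjusted p = 0.00116). The other 6 in the table had too few counts to be tested, and Slc2a3, Slc2a4, Slc5a3 and Slc5a7 were not analysed here.

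Genes that act before and after the transporters showed the same lower step in part. Of 4 brush-border glycosidases, which split disaccharides at the cell surface, 3 were called higher in V4 than in V1, namely Treh (log2 2.82), Lct (2.36) and Mgam (1.51). Sis, the sucrase gene, was not called (0.53 ± 0.39, SE; edgeR, adjusted p = 0.288). Of 11 tested genes of fructose and glucose metabolism, 6 were higher, among them Pck1, Glyctk, Sord and Khk, and 1 was lower (Akr1b3, the aldose reductase gene, log2 -2.23), against 19.0% and 17.5% of all genes. The block by mouse called 8 higher. Total UMI scaling put a further gene among the lower ones, for a count of 2. Khk rose by a log2 of 0.89 ± 0.18 (SE; edgeR, adjusted p = 0.000642). Sis is also among the 9 enterocyte markers.

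Of 11 tested regulators, 4 were higher in V4 and 0 lower, against 19.0% and 17.5% of all genes, with Sgk1, a kinase that acts on sodium transport, at a log2 of 2.74 ± 0.51 (edgeR, adjusted p = 0.000384) and Mlx, Gata4 and Hnf4a between 0.53 and 0.60. The count of higher regulators was 5 with mouse as a block and in DESeq2, 2 without mouse 1, mouse 3 or V1 of mouse 2 and 1 by total UMI scaling. Mlxipl, which encodes ChREBP, was not called (log2 -0.09; edgeR, adjusted p = 0.751). From V4 to V6 edgeR called 0 of the 34 genes tested in these lists, and DESeq2 also called 0. The 3 with an unadjusted p under 0.05 were Slc2a1, Akr1b3 and Arrdc4, named after their values were seen, each with a higher value in V6.

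**Figure D4:**
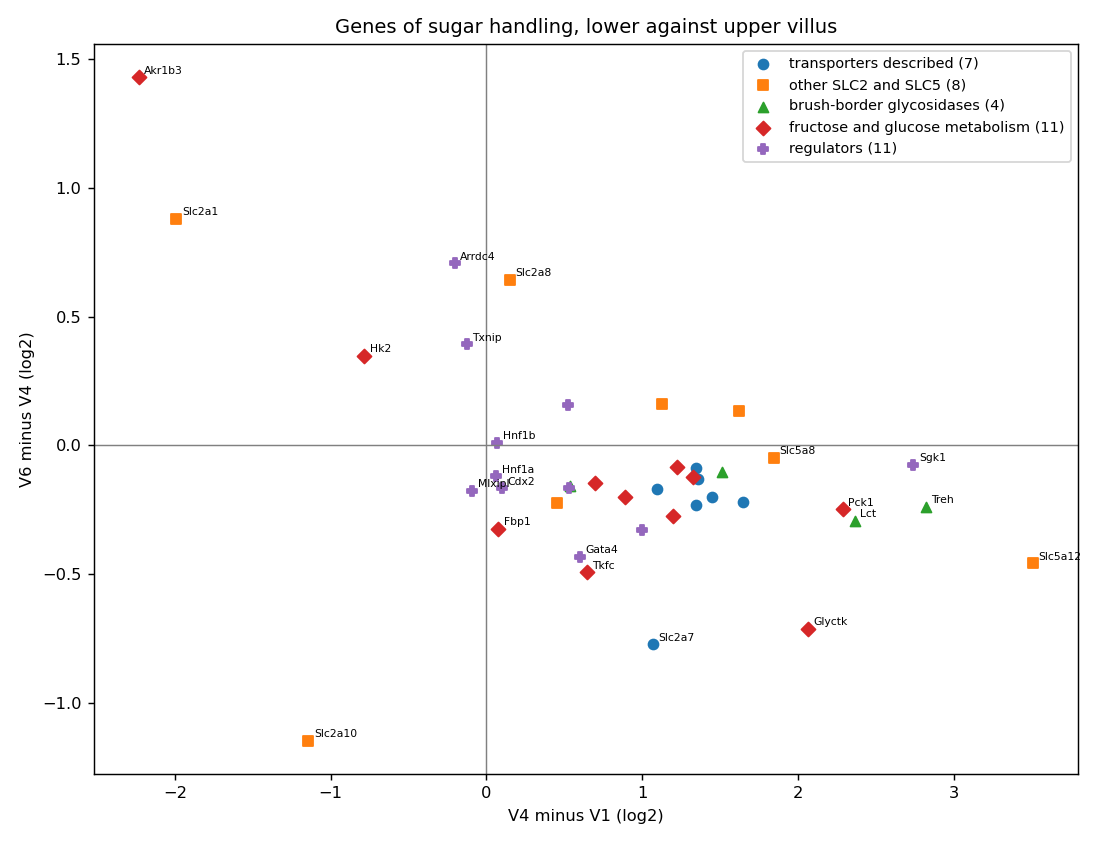
Log2 difference V4 minus V1 on the x axis against V6 minus V4 on the y axis for the 7 transporters and 34 related genes, 1 point per gene, with colour and shape for the list and names outside the dense middle. Both axes use the V4 libraries. The transporters sit to the right and below 0, Slc2a7 the lowest of them at -0.77, whereas Slc2a1 and Akr1b3 sit to the left and above 0.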

How the data were processed

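The data are counts of UMIs for each gene in 24 mcSCRB-seq libraries, a protocol that reads the 3′ end of polyadenylated RNA, in a single table as the authors deposited it, with no normalization. Per the submitters' processing notes, bcl2fastq 2.15.0.4 separated the reads of the libraries, and GRCm38 was the genome build. What aligned the reads, with which annotation and filters, was not given in the sources used here. Per the file headers, the deposited index gave mouse 1 and V1 of mouse 2 the same entry.

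Counts were analysed with edgeR 4.0.16 in R 4.3.3. Genes passing filterByExpr by zone (minimum count 10, minimum total 15) left 9328. Libraries were scaled by TMM, and a quasi-likelihood model with 1 mean per zone over 24 libraries (18 residual degrees of freedom) gave all contrasts. The slope takes zones as equally spaced. P-values and intervals of this model rest on the spread between the 4 mice within a zone. They take the 24 libraries as independent and leave out the pairing of zones by mouse. With mouse as a block, and in the ratio permutations, zones are compared within mice. Intervals use the t distribution with 18 degrees of freedom. Ratios used counts plus 0.5 and 100000 permutations of zones within mice. The test was tried on simulated counts.

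Mouse numbers in the labels join the zones of an animal. Deviations from zone means correlated between zones of the same mouse in 60 of 60 pairs (mean r 0.42, lowest 0.18), so the model with mouse as a block (15 degrees of freedom) is given where it changes the call of a transporter or a count.

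The 7 members and the related gene and marker lists were chosen with earlier results of these data known. Named genes were all members, genes of these lists that passed the filter, and up to 3 genes per member with the highest Pearson r of log2 CPM and a mean of at least 20 CPM. Motifs were searched in the 250 bases before RefSeq's start, where 6 of 7 members had an entry, and not after it. Alternatives were the block, DESeq2 1.42.0 or its size factors, total UMI scaling, removal of goblet markers, no filter, leaving out each mouse, and V2 to V6. V3 to V6, the blocks within these ranges, and leaving out V4 of mouse 4 or V1 of mouse 2 were added after seeing the data. Member counts at an unadjusted p, or from alternatives other than the block and these ranges, are not set beside a share over all genes. Some genes of the related lists are not reported here by name.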

Additional observations from a re-analysis of the deposited data

Results flagged for a closer look

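Among 42 groups of 4 libraries (7 transporters in 6 zones), 1 held a library that stood apart from the other 3 by more than Dixon's critical value at 95%. Slc2a5 in V3 had 72.45 CPM in mouse 3, against 110.2 to 115.4 CPM in the other mice. Chance sets apart about 1 in 20 such groups, so 1 of 42 is no more than it gives. Mouse 3 also had the lowest Slc2a5 of the 4 mice in V4, V5 and V6.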

How the results depend on the processing

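The rise from V1 to V4 was called for 5 to 7 members under all alternatives, and V6 against V4 and the within-library ratios for 0 under all. For the slope, 5 members were called, against 3 by total UMI scaling, 0 over V2 to V6 or V3 to V6, and 1 over either range with mouse as a replicate block (Slc5a9 higher and Slc2a2 lower). With single mice left out the slope count ran from 3 to 6. Of the 5 called slopes, 2 turned below 0 over V2 to V6, those of Slc2a2 (-0.076, and -0.066 with the block) and Slc2a5 (-0.033 and -0.039). Over V3 to V6 all 5 turned, with values for Slc5a1 (-0.097 and -0.098 with the block), Slc2a2 (-0.19 and -0.18), Slc2a5 (-0.085 and -0.087), Slc5a9 (-0.017 and -0.015) and Slc5a11 (-0.10 and -0.10). The uncalled slopes of Slc2a7 and Slc5a4a were also below 0 over both ranges (-0.10 and -0.074 over V2 to V6, -0.39 and -0.090 over V3 to V6). Both ranges leave out V1. The V3 to V6 range was chosen after seeing the data and starts at the zone where 5 members had their highest mean. Curvature was called for 5 members, and for 0 over V2 to V6 with and without the block. With single mice left out it was called for 2 to 4. Calls for any zone difference ran from 2 to 4 with single mice left out. The neighbouring steps held 2 calls, against 5 with the block pairing zones by mouse, 4 in DESeq2 and 0 to 3 with single mice left out. Fewer libraries in these models leave fewer degrees of freedom, and the cause of the other changes was not tested. The low counts of Slc2a7 and Slc5a4a limit what can be seen of their decline.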
